A study of Mus musculus with 2 samples.

Results

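Of 23223 gene symbols with an estimate in both of 2 RNA-seq libraries from mouse small-intestinal organoids, 9 encode proteins of lipoprotein assembly in the gut and are described here. The genes were chosen by symbol for that role: *Apob*, *Apoa1*, *Apoa4*, *Apoc3*, *Apoc2*, *Apoe*, *Mttp*, *Sar1b* and *Apobec1*. Organoids, here raised from crypts in a gel, are small cultured pieces of gut lining, and were kept with epidermal growth factor, noggin and R-spondin in the medium. The cells came from ChgA-GFP mice, whose green fluorescent protein (GFP) reports on chromogranin A, a granule protein of enteroendocrine cells. The dissociated cells were sorted into a GFP+ fraction, about 1% of the epithelial cells, and the remaining GFP- cells. Both fractions carry the reporter, and the series is about enterochromaffin cells, the serotonin-producing enteroendocrine cells. Each fraction is 1 library and the number of mice or cultures behind it is not given in the sources used here, so the differences are given without replicate checks and without p-values.

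Enterocytes package absorbed fat into chylomicrons. In the endoplasmic reticulum, microsomal triglyceride transfer protein (*Mttp*) loads lipid onto apolipoprotein B (*Apob*), and the particle leaves in a vesicle whose coat is started by the GTPase *Sar1b*. In the intestine, *Apobec1* edits the *Apob* transcript so that a shorter protein is made, and the smaller apolipoproteins of the A, C and E classes join the particle surface, where they act on lipases and receptors. Chylomicron assembly is classically a task of absorptive enterocytes and not of endocrine cells.

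Levels are in FPKM, a fragment count divided by transcript length and by library size. The deposited confidence interval of each of the 9 genes has a lower bound of 0 in both libraries, and in each library the ratio of upper bound to FPKM has a median of 2.36. The intervals of the libraries overlap for all 9. Over all rows, 0 in GFP+ and 1 in GFP- had a lower bound above 0. Such overlap is thus fixed for nearly every gene and cannot show whether a gene differs. A difference is given as log2((FPKM + 1) in GFP+ / (FPKM + 1) in GFP-), over the 11685 genes that reach 1 FPKM in either library. A gene was set apart at a difference of 2, which is 4-fold. This was met by 7.06% of these genes as higher in GFP+ and by 4.58% as lower, so that 60.7% of the genes set apart were higher. Cuffdiff gave no estimate for 5 loci in GFP+, *Chga* and *Chgb* among them, so the reporter's own gene could not be compared. The median difference over all 11685 genes was -0.12, with quartiles of -0.93 and 0.78. It was 0.35 when the median ratio was set to 0 over genes that reach 10 FPKM in each library, and 0.47 with the GFP+ library raised to the FPKM total of GFP-. Under these scalings 87.6% and 91.6% of the genes set apart were higher.

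The sort was checked against marker lists. Each of the 8 estimated enteroendocrine markers passed 4-fold as higher in GFP+, with a median difference of 5.05; *Pcsk1*, *Tph1*, *Slc18a1* and *Nkx2-2* had 6.24, 6.20, 5.31 and 5.06. Of 18 enterocyte markers, 1 was at least 4-fold higher in GFP+ (3 under either other scaling) and none was lower, 9 were above 0 and 9 below, and the median was 0.05. Their summed level was 3244 FPKM in the GFP+ library against 5892 in GFP-. None of them was at 0 in either library. The brush border genes *Dpp4* and *Cdhr5* had 1.90 and 1.69, and *Krt20*, a keratin of mature surface epithelium, had 2.38. The 2 markers with the lowest differences among Paneth, goblet and tuft cell genes, *Defa24* and *Lyz1* of Paneth cells, had a GFP+ level of 0.0591 and 0.0599 times the GFP- level. The part of cells of other types in the values of the GFP+ library was not tested, and in bulk libraries fewer cells of a type cannot be told apart from less RNA per cell.

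All 9 lipoprotein genes were above 1 FPKM in both libraries, and none of them differed by 4-fold in either direction. Their differences ran from -1.14 for *Sar1b* to 1.15 for *Apoc3* with a median of -0.04, close to the -0.12 of all genes. *Apob*, *Apoa4*, *Apoc3* and *Apoe* were above 0 as deposited, and *Apoa1*, *Apoc2*, *Apobec1*, *Mttp* and *Sar1b* below. At 2-fold, 2 of the 9 were higher and 2 lower, where 20.1% of all genes were higher and 23.1% lower. In summed FPKM the 9 genes had 1093 in GFP+ and 1207 in GFP-, which is 0.275% and 0.197% of all FPKM estimated in both libraries.

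**Figure D1:**
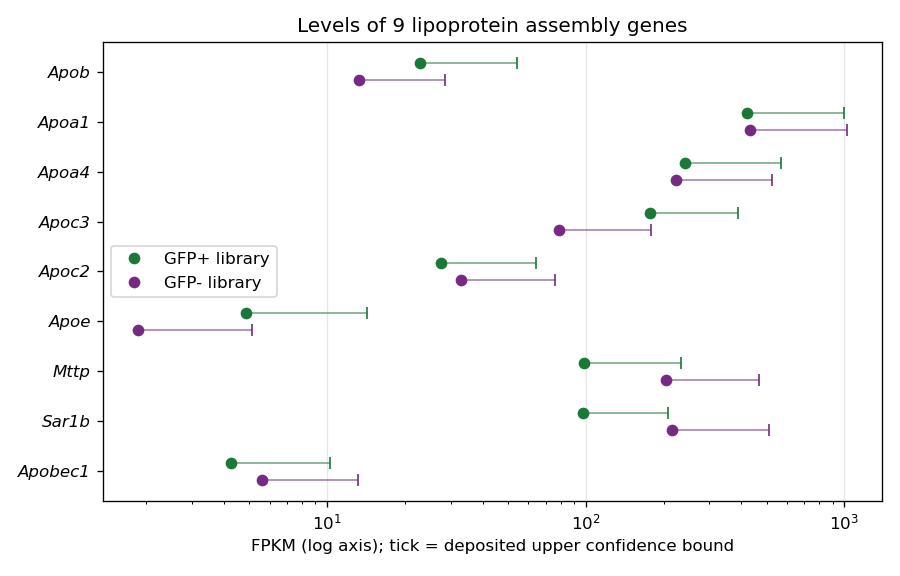
FPKM of the 9 genes on a log axis in the GFP+ library (green) and the GFP- library (purple), 1 library each; lines run to the deposited upper confidence bound, and the lower bounds, all at 0, are not drawn. *Apoa1* is the most abundant of the 9 in both libraries, at 420 FPKM in the GFP+ library against 431 in GFP-, and *Apoe* and *Apobec1* are the least abundant, below 6 FPKM in each.

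Among the structural proteins, *Apob*, the protein around which each chylomicron is built (chromosome 12, 7977677 to 8016839, mm10, plus strand, protein-coding; loci here and below are those listed in the files, counted from 1), was at 22.9 FPKM in the GFP+ library against 13.2 in GFP-. The upper bounds were 54.0 and 28.5 FPKM, and the log2 difference was 0.75. It lay above 66.1% of the tested genes in GFP+ and above 50.5% in GFP-, a middling level in both libraries. *Apoa1*, the main protein of high-density lipoprotein and one that enterocytes also secrete (chromosome 9, 46228630 to 46230469, plus strand), was at 420 FPKM in the GFP+ library against 431 in GFP-, with upper bounds of 995 and 1020 FPKM. This level was the 83rd highest of 11685 in GFP+ and the 181st highest in GFP-. *Apoa4*, an apolipoprotein that the small intestine makes on fat absorption (chromosome 9, 46240844 to 46243458, plus strand), was at 241 FPKM in the GFP+ library against 223 in GFP-, with upper bounds of 568 and 526 FPKM. The differences of *Apoa1* and *Apoa4* were -0.04 and 0.12, and *Apoa4* had the 212th highest level in GFP+ and the 484th in GFP-. Both genes were thus high in both libraries and close to equal between them as deposited, with 0.46 and 0.61 when the median ratio was set to 0. *Gm10680*, an antisense gene, and *Gm47528* overlap *Apoa4* on the other strand in the annotation, and whether counting used strand is not given in the sources used here.

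The 250 bases upstream of the start sites of *Apoa1* and *Apoa4*, the pair with almost equal levels in both libraries, and of *Apob* are shown from RefSeq (GRCm38.p6, the assembly of mm10; chr9:46228380-46228629, chr9:46240594-46240843 and chr12:7977427-7977676, all on the plus strand). Capitals mark matches to the motifs searched on both strands, which were CAAAGTCC and CAAAGGTC, cores of sites bound by the enterocyte and liver factor HNF4, GTTAAT, part of sites bound by HNF1, and TATAAA, the TATA box.
Apoa1: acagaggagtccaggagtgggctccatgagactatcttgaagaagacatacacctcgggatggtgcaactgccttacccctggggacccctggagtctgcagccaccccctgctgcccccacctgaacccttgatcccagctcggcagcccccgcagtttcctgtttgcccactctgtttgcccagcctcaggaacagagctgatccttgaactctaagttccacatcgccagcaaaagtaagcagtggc
Apoa4: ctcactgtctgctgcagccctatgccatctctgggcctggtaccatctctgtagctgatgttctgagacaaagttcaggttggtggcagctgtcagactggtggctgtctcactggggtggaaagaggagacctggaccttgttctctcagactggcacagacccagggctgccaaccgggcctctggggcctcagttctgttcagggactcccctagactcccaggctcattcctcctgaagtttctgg
Apob: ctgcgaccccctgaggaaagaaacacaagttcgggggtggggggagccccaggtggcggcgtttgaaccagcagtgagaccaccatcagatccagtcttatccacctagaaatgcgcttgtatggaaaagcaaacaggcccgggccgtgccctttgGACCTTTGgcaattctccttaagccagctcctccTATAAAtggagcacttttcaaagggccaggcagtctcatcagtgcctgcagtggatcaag
The *Apob* window holds CAAAGGTC on the opposite strand, read there as GACCTTTG from 94 bases before the start, and TATAAA on the gene's strand from 60 bases before it. Of 32851 such windows in the table, 1.01% hold CAAAGGTC, 1.20% hold CAAAGTCC, 6.43% hold GTTAAT and 12.4% hold TATAAA. Only exact matches were searched, so a window without one may still hold a variant of a motif. The *Apoa1* and *Apoa4* windows hold none of the 4 motifs. The window of *Apoc2* holds GTTAAT, that of *Apobec1* holds TATAAA, and those of *Mttp* and *Sar1b* hold none of them. *Apoe* has 3 windows, of which the one outside its listed locus holds no motif, another holds TATAAA on both strands in overlapping places, and the last holds GTTAAT. Of the 9 genes, 8 have a window in the table, *Apoc3* being without one. *Hnf4a*, the gene of that factor, was at 180 FPKM in the GFP+ library against 190 in GFP-.

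Of the surface proteins that act on lipases and receptors, *Apoc3*, an inhibitor of lipoprotein lipase (chromosome 9, 46233050 to 46235636, minus strand), was at 177 FPKM in the GFP+ library against 79.0 in GFP-, with upper bounds of 387 and 178 FPKM. Its difference of 1.15 was the highest of the 9 with 1 FPKM added. Its GFP+ level was the 337th highest of 11685 genes, against the 1692nd in GFP-. *Apoc2*, the activator of the same lipase (chromosome 7, 19671579 to 19677941, minus strand), was at 27.6 FPKM in the GFP+ library against 32.9 in GFP-, a difference of -0.25. The inhibitor and the activator thus lay on different sides of 0 as deposited, but *Apoc2* was at 0.23 and 0.36 under the scalings named above. An annotated read-through gene, *Gm44805*, covers *Apoc2* on the same strand and has no row of its own in the files, so its reads cannot be told apart from those of *Apoc2*. *Apoe*, a ligand of lipoprotein receptors (chromosome 7, 19696244 to 19699166, minus strand), was at 4.87 FPKM in the GFP+ library against 1.86 in GFP-, with upper bounds of 14.2 and 5.10 FPKM and a difference of 1.04. It was the lowest of the 9 in GFP-, and lay above 26.4% of the tested genes in GFP+ and above 17.8% in GFP-. With a pseudocount of 0.1 the difference of *Apoe* was 1.35, above the 1.16 of *Apoc3*. With a pseudocount of 5 that of *Apoe* was 0.53.

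*Apoe* is also abundant in macrophages, so markers of leukocytes were read beside it. Of 10 macrophage and leukocyte genes 4 reached 1 FPKM, each in 1 library only. *C1qa*, a complement subunit, was at 66.5 FPKM in the GFP+ library against 0.677 in GFP-, *Lyz2* at 6.61 and 0.858 FPKM, *Cd68* at 2.71 and 0.595 FPKM, and *Itgam* at 0.270 and 1.03 FPKM. Among the genes of the list that did not reach 1 FPKM, *Ptprc*, common to leukocytes, was at 0.0224 FPKM in each library. *Csf1r* was at 0.192 FPKM in GFP+ and 0 in GFP-, and *Emr1* at 0.0211 FPKM in GFP+ and 0 in GFP-. The sum over the list was 77.9 FPKM in the GFP+ library against 3.38 in GFP-, of which *C1qa* alone gave 66.5 and 0.677. The part of such cells in the *Apoe* value was not tested.

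The genes for lipid loading and vesicle export were both lower in GFP+, without reaching 4-fold. *Mttp*, which moves triglyceride onto the growing particle (chromosome 3, 138089855 to 138143388, minus strand), was at 98.6 FPKM in the GFP+ library against 205 in GFP-, with upper bounds of 234 and 469 FPKM. *Sar1b*, whose loss in people causes chylomicron retention disease (chromosome 11, 51763663 to 51791953, plus strand), was at 97.2 FPKM in the GFP+ library against 216 in GFP-, with upper bounds of 209 and 513 FPKM. The GFP+ levels were 0.481 and 0.451 times the GFP- levels, and the differences were -1.05 and -1.14. These were the only 2 of the 9 genes to stay below 0 under both other scalings, at -0.56 and -0.65 with the median ratio set to 0 and -0.43 and -0.52 with one total. The neighbour *Trmt10a* and an antisense gene overlap *Mttp* in the annotation. Both *Mttp* and *Sar1b* were above 93.1% and 93.0% of the tested genes in GFP+ all the same.

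Partners of these proteins were read beside them. *Sar1a*, the paralogue of *Sar1b* with a general part in secretion, was at 74.8 FPKM in the GFP+ library against 56.1 in GFP-, a difference of 0.41, with 0.90 and 1.03 under the other scalings. *P4hb*, protein disulfide isomerase, the subunit that keeps the transfer protein soluble, was at 1047 FPKM in the GFP+ library against 1155 in GFP-, a difference of -0.14 that was above 0 under both other scalings. *Surf4*, a cargo receptor that carries lipoproteins out of the endoplasmic reticulum, was at 192 FPKM in the GFP+ library against 285 in GFP-, with -0.57 as deposited and 0.05 with one total.

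*Apobec1*, the cytidine deaminase that edits *Apob* (chromosome 6, 122577792 to 122602444, minus strand), was at 4.26 FPKM in the GFP+ library against 5.60 in GFP-, with upper bounds of 10.2 and 13.2 FPKM. Its difference of -0.33 was at 0.09 and 0.20 under the other scalings, so no direction can be given. The site on which it acts is shown because it ties *Apobec1* to *Apob*: deamination of one C turns a CAA codon into the stop codon UAA, which yields the short intestinal protein. The 71 bases around it lie in exon 26 of the GENCODE M21 transcript of *Apob*, in the coding sequence (GRCm38, chr12:8008024-8008094, plus strand), with the edited C at position 8008054, in codon 2179 of that transcript. Capitals mark the edited base and TGATCAG, the start of the mooring sequence to which the editing complex binds. The site was found as the 1 in-frame CAA codon of the transcript with that motif in the matching place, searched on the coding strand.
Apob editing site: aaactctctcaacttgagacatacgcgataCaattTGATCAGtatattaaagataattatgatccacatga
Editing itself was not measured, since the files hold a level per gene and no reads.

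Of 6 genes for cofactors and modulators of this editing, none passed 4-fold as deposited, and 3 were above and 3 below 0. *A1cf*, the classical RNA-binding partner of the deaminase, was at 7.55 FPKM in the GFP+ library against 2.67 in GFP-, a difference of 1.22. *Rbm47*, a second partner, was at 38.3 FPKM in the GFP+ library against 32.3 in GFP-. *Celf2*, an RNA-binding protein, was at 3.31 FPKM in the GFP+ library against 0.0883 in GFP-. It reached 1 FPKM in GFP+ alone, which fixes the sign of its difference. The difference was 1.99 as deposited and passed 4-fold at 2.38 and 2.49 under the other scalings. With a pseudocount of 5 it was 0.71, and with the median of its length class set to 0 it was 1.30. *Hnrnpab* and *Syncrip* had -1.45 and -0.79.

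Ratios between genes within one library do not depend on how the libraries were scaled. They compare FPKM, which are levels per length. *Mttp* was at 4.31 times the level of *Apob* in GFP+ and at 15.5 times in GFP-. *Sar1b* was at 1.30 times *Sar1a* in GFP+ and 3.84 times in GFP-. *A1cf* was at 1.77 times *Apobec1* in GFP+ and 0.478 times in GFP-. Between the fractions these ratios differed by factors of 3.60, 2.96 and 3.71. The members of these pairs differ in transcript length, and with length classes centred the log2 differences were -1.10 for *Mttp* and 0.06 for *Apob*, -0.31 for *Sar1b* and 0.86 for *Sar1a*, and 1.17 for *A1cf* and 0.12 for *Apobec1*. *Apoc2* was at 5.66 times *Apoe* in GFP+ and 17.7 times in GFP-. Closer between the fractions, *Sar1b* was at 0.986 times *Mttp* in GFP+ and 1.05 times in GFP-, and *Apoa4* was at 0.574 times *Apoa1* in GFP+ and 0.516 times in GFP-. *Apoc3* was at 0.421 times *Apoa1* in GFP+ and 0.183 times in GFP-, and at 6.41 times *Apoc2* in GFP+ and 2.40 times in GFP-.

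**Figure D2:**
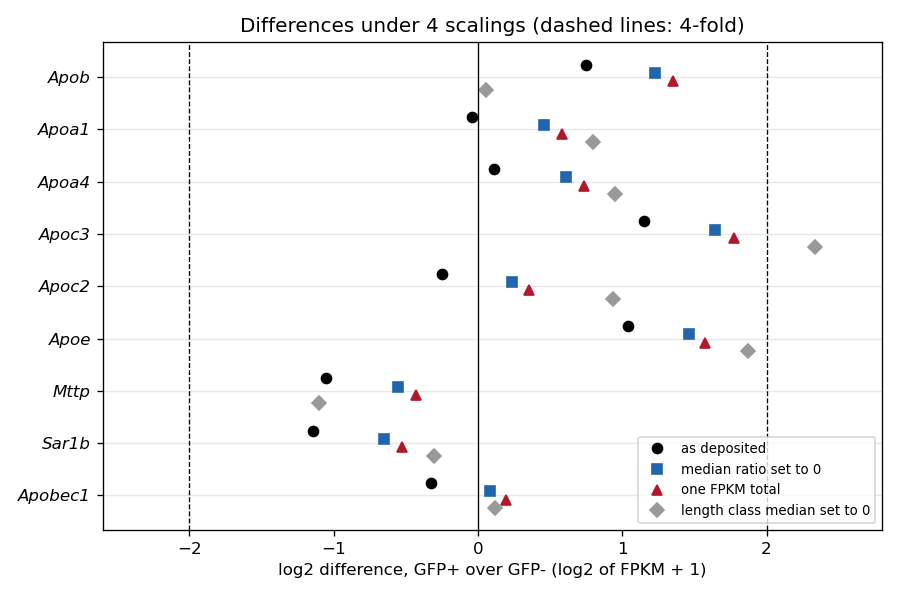
Log2 difference of GFP+ over GFP- for each of the 9 genes under 4 scalings (as deposited, median ratio set to 0, one FPKM total, median of each length class set to 0), 1 library per fraction; dashed lines mark 4-fold. *Apoc3*, *Apoe*, *Apob* and *Apoa4* lie above 0 in each of the 4, *Mttp* and *Sar1b* below 0 in each, and *Apoa1*, *Apoc2* and *Apobec1* are below 0 as deposited alone.

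Differences moved with transcript length over the whole data set, which touches each of the 9 genes. Over the 11154 tested genes with an annotated transcript, Spearman's rho between the length of the longest transcript and the difference was 0.43, a description over genes of 2 libraries. The median difference was -1.18 for the 585 genes under 1000 bases, -0.83 for the 1939 genes from 1000 to 2000 bases, -0.45 for the 2416 from 2000 to 3000 bases, 0.05 for the 3910 from 3000 to 5000 bases and 0.69 for the 2304 longer ones. *Apob*, with 13934 bases, was at 0.75, near the median of its class. *Apoc3*, with 709 bases, was at 1.15 and so 2.34 above the median of its class, past 4-fold on that measure. *Apoe*, with 1408 bases, lay 1.87 above its class, *Apoa4* 0.95, *Apoc2* 0.94 and *Apoa1* 0.80. *Sar1b*, with 1201 bases, was at -0.31 against its class, and thus nearer to genes of like length than to 0. *Mttp*, with 3963 bases, was at -1.10 against its class, the lowest of the 9 on that measure. The part of length in these values was not tested.

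**Figure D3:**
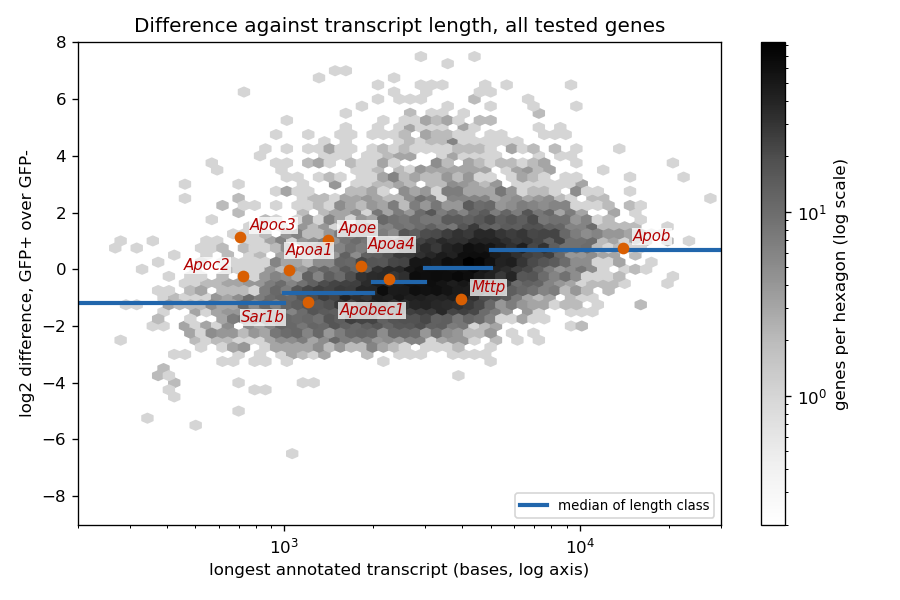
Log2 difference of GFP+ over GFP- against the longest annotated transcript (log axis) for 11154 tested genes in grey, with the median of each of 5 length classes as a blue line and the 9 genes in orange. Class medians run from -1.18 for the shortest genes to 0.69 for the longest, and *Apoc3* and *Apoe* lie above genes of like length while *Mttp* lies below.

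Both families of small apolipoproteins sit in gene clusters. On chromosome 9, *Apoc3* lies between *Apoa1* and *Apoa4*, and *Apoa5* lies beyond *Apoa4*, 40.0 kb from the start of *Apoa1*. *Apoa5*, a regulator of triglyceride breakdown known mainly from liver (46268608 to 46271919), was at 5.38 FPKM in the GFP+ library against 0.0153 in GFP-. Its difference of 2.65 passed 4-fold as deposited and under both other scalings, and was 1.05 with a pseudocount of 5. On the inferred scale of fragments given under processing, the GFP- value stands for about 2 fragments and the GFP+ value for 810. The ratio was 400 from whole fragments (352 from the FPKM, since 2.27 fragments were rounded down). Its exact 95% interval, from 110 to 3305, covers counting error only and takes fragments as independent. *Zpr1* and *Bud13*, the next genes outward, had -0.73 and -0.32, *Sik3* on the other side had 0.27, and *Pafah1b2* had 0.59. *Bud13* was above 0 under both other scalings. On chromosome 7, *Apoc2* and *Apoe* flank *Apoc4* and *Apoc1*. *Apoc1* was listed at 0 in both libraries and *Apoc4* at 0 in GFP+ and 0.247 FPKM in GFP-. Among genes around them, *Tomm40*, a subunit of the mitochondrial import pore, was at 76.7 FPKM in the GFP+ library against 314 in GFP-. Its difference of -2.02 was -1.53 and -1.40 under the other scalings, and so no longer past 4-fold. *Relb*, *Pvrl2* and *Clptm1* had -1.37, -0.65 and -0.25, the last above 0 under both other scalings.

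**Figure D4:**
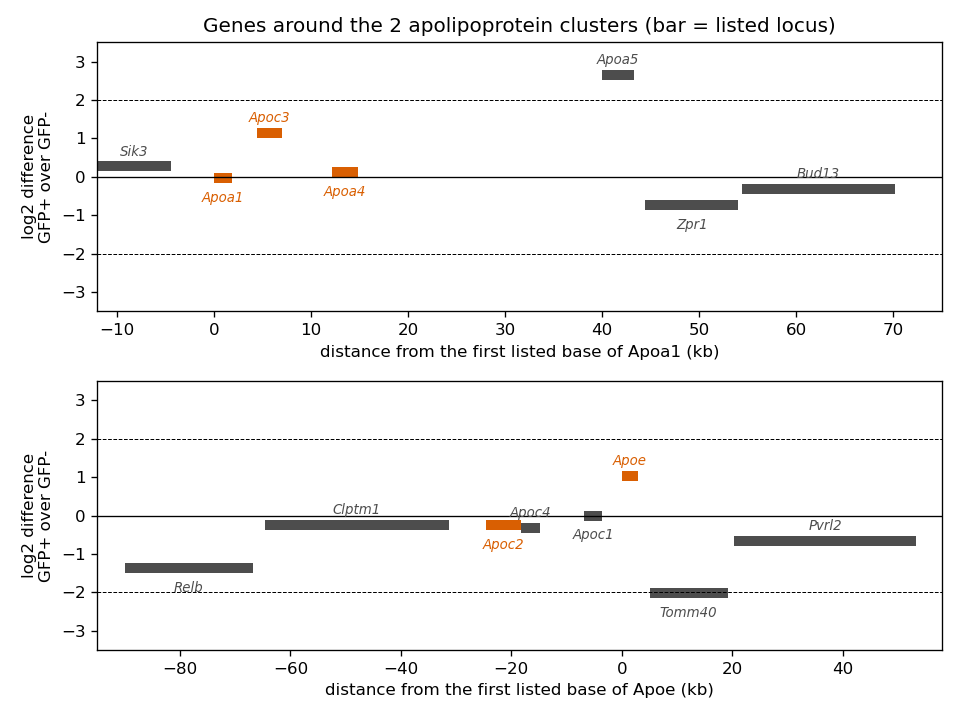
Log2 difference of GFP+ over GFP- (vertical position of each bar) for genes around *Apoa1* and around *Apoe*, drawn over their listed loci against distance in kb; the 9 genes are in orange, dashed lines mark 4-fold, and *Sik3* runs past the left edge. *Apoc3* at 1.15 lies between *Apoa1* at -0.04 and *Apoa4* at 0.12, and *Apoa5* is the highest at 2.65; *Apoc1*, drawn at 0, is listed at 0 in both libraries.

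Of the other apolipoproteins, 4 of the 10 with an estimate reached 1 FPKM. Of these, 1 was at least 4-fold higher and 1 lower in GFP+, against 7.06% and 4.58% of all tested genes. The higher one was *Apoa5*. The lower one, *Apool*, a protein of mitochondrial inner membrane structure that carries the family's name, was at 16.3 FPKM in the GFP+ library against 81.2 in GFP-, with -2.25 as deposited and -1.77 and -1.65 under the other scalings. *Apoa2*, a protein of high-density lipoprotein, was at 3.28 FPKM in the GFP+ library against 2.45 in GFP-, and *Clu*, a secreted chaperone, at 5.07 and 3.35 FPKM.

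Genes for the vesicle coat and for the export of large cargo were compared next. Of the 24 that reached 1 FPKM, 3 passed 4-fold as higher in GFP+ and none as lower, with a median of 0.26. Over all tested genes 7.06% passed as higher and 4.58% as lower. *Mia3*, which helps load large cargo such as lipoproteins and collagen, was at 39.5 FPKM in the GFP+ library against 7.0 in GFP-. *Sec16a* and *Sec16b*, scaffolds of the exit sites of the endoplasmic reticulum, had 31.1 and 29.5 FPKM in GFP+, against 6.29 and 6.34 FPKM in GFP-. With a pseudocount of 5 the 3 genes were below 4-fold, and with length classes centred *Sec16a* was, at 1.45. The median of the list was 0.70 and 0.82 under the other scalings. *Tm6sf2*, needed for full lipid loading of particles, had the lowest difference, at 35.9 FPKM in the GFP+ library against 123 in GFP-. This difference was -1.75, with -1.27 and -1.14 under the other scalings and -0.92 with length classes centred.

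Among 20 genes for lipid uptake and re-esterification that reached 1 FPKM, 3 passed 4-fold as higher and 2 as lower, with a median of -0.64. The shares over all tested genes were 7.06% higher and 4.58% lower. *Npc1l1*, the cholesterol uptake protein of the brush border, was at 149 FPKM in the GFP+ library against 35.5 in GFP-, and *Lpin2*, a phosphatidate phosphatase, at 27.8 and 5.13 FPKM. *Agpat6*, a glycerol-phosphate acyltransferase named after its values were seen, was at 127 FPKM in the GFP+ library against 30.5 in GFP-. With a pseudocount of 5 no gene of the list was 4-fold higher. With length classes centred *Npc1l1* was at 1.99 and *Lpin2* at 1.54, and *Agpat6*, without a matched transcript length, had no value. *Fabp1*, a fatty acid binding protein, was at 470 FPKM in the GFP+ library against 2157 in GFP-, and its relative *Fabp2* was at 62.9 FPKM in the GFP+ library against 277 in GFP-. With length classes centred *Fabp1* was at -1.01 and *Fabp2* at -0.94. Neither passed 4-fold under the other scalings, at which 21 genes reached 1 FPKM and the median was 0.03 and 0.15. Of 14 transcription regulators above 1 FPKM none passed 4-fold, 12 were below 0 as deposited, and their median was -0.30. It was 0.19 and 0.33 under the other scalings, at which 6 of 14 and 4 of 15 were below 0. *Hnf4a* had -0.07, while *Nr1h3*, *Creb3l3*, *Cdx2* and *Rxra* had -1.54, -1.27, -1.17 and -1.12. *Creb3l3*, a membrane-bound factor that acts on apolipoprotein genes, was at 17.5 FPKM in the GFP+ library against 43.6 in GFP-.

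**Figure D5:**
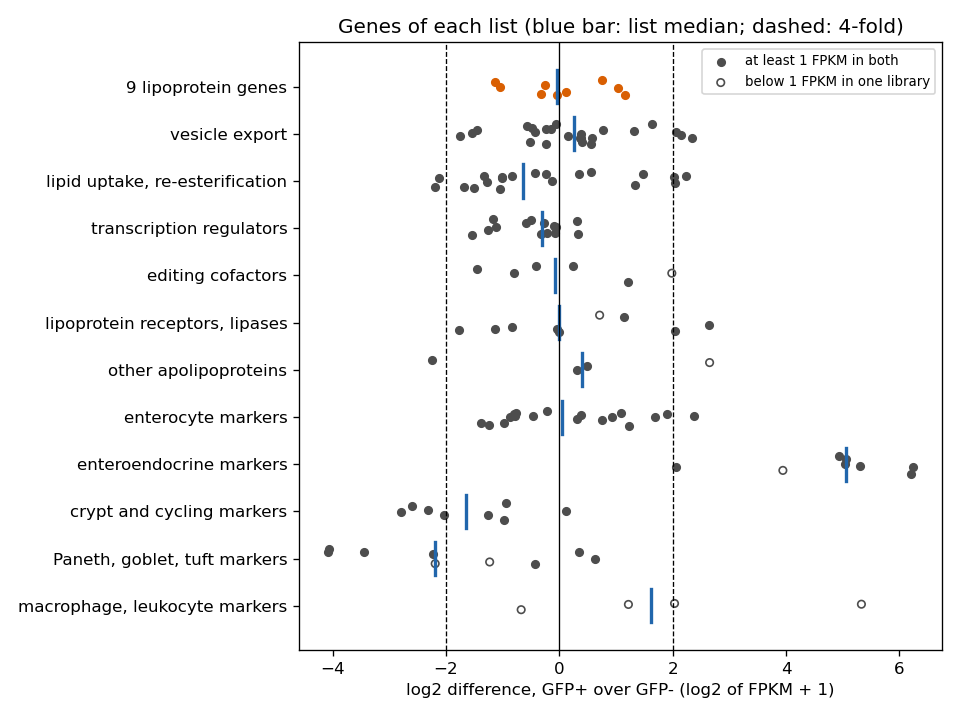
Log2 difference of GFP+ over GFP- for the genes of each list that reach 1 FPKM in either library, 1 library per fraction; blue bars are list medians, dashed lines 4-fold, and open points are genes below 1 FPKM in one library, whose sign that filter fixes. The 9 lipoprotein genes lie within 4-fold with a median of -0.04, against -0.12 for all genes, 0.05 for the enterocyte markers and 5.05 for the enteroendocrine markers.

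The genes whose levels in the 2 libraries lay nearest to those of each member, by Euclidean distance on the log2(FPKM + 1) scale, were also named. They were *Asns* and *Tm4sf20* for *Apoa1*, *Tmed4* and *Ugdh* for *Apoa4*, *Galnt11* and *Prpf38b* for *Apob*, *Nedd4* and *Gucy2c* for *Apoc3*, and *Psmc5* and *Efna1* for *Mttp*. *Efna1* was nearest to *Sar1b* too, followed by *Psmd8*. For *Apoc2* they were *Lsg1* and *Denr*, for *Apoe* the genes *Tchp* and *Sema6d*, and for *Apobec1* the genes *Inca1* and *Aste1*. The distances ran from 0.0165 for *Lsg1* to 0.240 for *Tm4sf20*.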

How the data were processed

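The deposited values are FPKM per gene with Cuffdiff's lower and upper confidence bounds, per the file headers. The submitters' processing notes name mm10 as the build and list Cuffdiff, Cufflinks, TopHat2 0.7 and FastQC as tools. For annotation, strand, scaling and multi-mapped reads, settings were not given in the sources used here. Of 23793 rows per file, 333 that join several symbols were left out and the rest summed per symbol. Symbols with a locus too deep for Cuffdiff to estimate in GFP+ (5) were dropped, and rows with a failed estimate (8 in GFP+, 5 in GFP-) were kept as listed.

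Low FPKM of single-transcript genes over 3 kb lie in steps. With the most populated step taken as 1 fragment, 1 FPKM and kilobase is 59.8 fragments in GFP+ and 59.0 in GFP-, and 59.0% of 83 and 75.2% of 109 low values lie within 0.1 of a whole number, though the unit was fitted to the same values. On this inferred scale the 9 genes have from 154 fragments (*Apoe* in GFP-) to 47936 (*Mttp* in GFP-), and the ratio for *Apoe*, 2.62, has an exact 95% interval from 2.18 to 3.18. Intervals cover counting error only and take fragments as independent. Amplified fragments are not independent molecules, so the intervals may be too narrow even for that error.

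The members and lists were chosen with earlier results of these data known. Named were all 9 members, the 4 genes per list farthest from 0, a fixed set of partners and neighbours, and the 2 genes nearest to each member in level. The size rule was run on simulated data with changes well past 4-fold, no trend with length and no low GFP- levels. That run checks the computation only, and not how the rule behaves on these libraries. Computations used Python 3.11.15, pandas 2.3.3 and scipy 1.17.1. Transcript lengths are from GENCODE M21. A few genes that the naming rule selects are not reported here.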

Additional observations from a re-analysis of the deposited data

How the results depend on the processing

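No member passed 4-fold under any of the alternatives run, except *Apoc3*, at 2.34, when the median of its length class was set to 0, which gave 1 higher member and a members' median of 0.80; this alternative and one with the enterocyte marker median set to 0 were chosen after seeing the data. The members' median was 0.46 with the median ratio set to 0 and 0.58 with one FPKM total. With a 2-fold rule 2 members were higher and 2 lower. *Apoa1*, *Apoc2* and *Apobec1* changed sign under both other scalings and with length classes centred. Of the context genes, 20 were higher and 13 lower as deposited. A pseudocount of 5 left 9 higher, the median ratio set to 0 and one total each left 5 lower, centred length classes left 3 lower, and the 2-fold rule gave 34 and 35. Over all genes, 825 were higher and 535 lower. A pseudocount of 0.1 gave 1502 higher, one of 5 gave 345 higher and 311 lower, the median ratio set to 0 gave 1289 and 183, one total 1424 and 131, and centred length classes 855 and 196, so that 81.4% were higher. The 2-fold rule gave 2343 and 2696. No paired analysis was possible because each group holds 1 library, and no replicate could be left out. Depth limits genes near 0 in GFP-, such as *Apoa5*, *Col3a1* and *Gfap*, whose values there stand for 2.27, 1.95 and 1.00 fragments.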

Other observations

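Receptors and lipases that act on circulating lipoproteins were read as values that belong to no comparison above. Among the 9 that reached 1 FPKM, 2 passed 4-fold as higher in GFP+ and none as lower, and their median difference was -0.01. Of all tested genes 7.06% passed as higher and 4.58% as lower. *Vldlr*, the very-low-density lipoprotein receptor, was at 14.2 FPKM in the GFP+ library against 1.44 in GFP-. *Lrp8*, its close relative and a receptor for *Apoe*-containing particles and for reelin, was at 7.59 FPKM in the GFP+ library against 1.07 in GFP-. Both differences, 2.64 and 2.05, stayed past 4-fold under both other scalings and were 1.58 and 1.05 with a pseudocount of 5. Both transcripts are longer than 5000 bases, and with the median of that length class set to 0 they were 1.95 and 1.36.

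*C1qa* stood far from its 2 partner subunits of the complement protein C1q. It was at 66.5 FPKM in the GFP+ library against 0.677 in GFP-, whereas *C1qb* was at 0.969 FPKM in GFP+ and 0 in GFP-, and *C1qc* at 0.519 and 0.0200 FPKM.

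Of the remaining lists, 4 of 8 for crypt and cycling cells passed 4-fold as lower in GFP+ (*Ascl2*, *Pcna*, *Ccnb1* and *Olfm4*), of which *Ascl2* and *Pcna* did so under both other scalings. None of the 8 passed with length classes centred, where *Ascl2* was at -1.96 and *Pcna* at -1.77. Of 9 Paneth, goblet and tuft cell genes, 5 passed as lower, against 3 with either scaling. Over all tested genes 4.58% passed as lower as deposited. *Spink4*, *Mmp7* and *Rgs13*, the last named after its values were seen, had -3.45, -2.23 and -2.19. The goblet cell gene *Muc2* and the tuft cell gene *Dclk1*, also named after their values were seen, had 0.35 and 0.63 as deposited, and *Dclk1* had -0.06 with length classes centred. The 3 mesenchymal and glial genes of at least 1 FPKM, *Col3a1*, *Col1a1* and *Gfap*, reached it in GFP+ alone, at 1.61, 1.56 and 1.01 FPKM.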
